A study of Homo sapiens with 8 samples.

Results

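The comparison described here set 2 human B-lineage acute lymphoblastic leukaemia cell lines, labelled SUP-B8 and NALM-6, against each other while both were treated with GSK126, an inhibitor of the histone methyltransferase EZH2. It used 4 of the 8 arrays of the series: 2 arrays labelled SUP-B8 and 2 labelled NALM-6, each a biological replicate given GSK126 for 72 hours at a dose of 0.5 uM. The other 4 arrays, 2 for each line, came from cells given the vehicle DMSO for 72 hours, and they supplied the line difference without the drug. All groups were cultured cancer cell lines, and the labels do not give the EZH2 genotype of either line, although the title of the series concerns a mutant EZH2. The features were the 41097 probe sets with 1 gene symbol among 54675 on the array. They stood for 19775 genes, of which 13161 were above the median of the array on at least 2 of the 8 arrays and were tested.

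EZH2 is the catalytic subunit of Polycomb repressive complex 2 (PRC2), which methylates lysine 27 of histone H3, a mark that accompanies gene silencing. GSK126 competes with the methyl donor of the enzyme, and the mark is then lost as cells divide. In the B lineage EZH2 is active in dividing precursors and in germinal-centre cells, and the leukaemias that arise along this path keep much of the expression programme of the stage they come from. Histone methylation itself was not analysed here, so the degree of inhibition in each line is not known from these data.

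The arrays were checked against markers of the B lineage and of each line. Both labels carried CD79A and PAX5, on all 8 arrays at 11.98 or more and 12.22 or more on the log2 scale. The myeloid genes CD14 and MPO were below the array medians, 7.18 to 7.24, on every array. CSF3R, also a myeloid gene, read 7.26 to 7.60 and was above the median on every array. The T-cell genes CD3D and CD3E read 7.36 to 7.65 and 8.03 to 8.38, above those medians, with no line difference called. Of 11 T- and NK-cell markers tested under GSK126, 2 were higher and 2 lower on the arrays labelled SUP-B8. Of 4 myeloid markers 1 was higher, and of 7 erythroid, stromal and epithelial markers 1, HBB, was lower. Over all tested genes 35.1% were called higher and 32.6% lower on the arrays labelled SUP-B8. The call of HBB was lost without either GSK126 array labelled NALM-6 and without replicate 2 of those labelled SUP-B8. The arrays labelled SUP-B8 carried the transcripts that are commonly described for NALM-6. The terminal transferase DNTT and the surrogate light chain were higher there, while CDKN2A and its neighbour MTAP were low. Of 18 tested genes of the leukaemia subtype with an IGH-DUX4 fusion, 16 were higher there and 1, ANXA1, was lower. The arrays labelled NALM-6 carried most of the mature B-cell genes. FCER2, a marker of mature B cells, was below the medians on all 8 arrays. CD72 and IGHD were called higher on the arrays labelled SUP-B8 under GSK126, and leaving out 1 array gave 0 to 2 such calls. The samples are therefore named throughout as arrays labelled SUP-B8 and arrays labelled NALM-6, and every direction below is that of the labels. Arrays of 1 group correlated at 0.998 across probe sets, and the probes that compare the ends of ACTB and GAPDH transcripts differed by -0.143 to 0.022 log2 units over the 8 arrays.

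With GSK126 present, the lines differed at most genes measured. Under GSK126, 8913 of 13161 genes tested (67.7%) were called different between the lines by limma at a Benjamini-Hochberg adjusted p under 0.05, 4616 of them higher (35.1%) and 4297 lower (32.6%) on the arrays labelled SUP-B8. A difference of 1 log2 unit, a doubling, was measured for 708 genes that were higher and 800 that were lower. It was also reached as a bound, with 1 line below background, by 299 higher and 265 lower genes. Under DMSO the same test called 8990 genes (68.3%). In such bulk samples, fewer cells that express a gene and less of its RNA per cell cannot be told apart. Because so large a share of all genes differed, a call on its own says little about any list below, and the counts that follow are to be read against these percentages.

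Most line differences found without the drug were found again with it. Of the 8990 genes called under DMSO, 7494 (83.4%) were called in the same direction under GSK126, 239 were called in the opposite direction and 1257 were not called. The share was 81.8% for genes higher and 85.3% for genes lower in the arrays labelled SUP-B8. A further 1180 genes were called only under GSK126, 723 of them lower on the arrays labelled SUP-B8, but the change itself passed its test for only 447 of these. Across the 13161 genes the difference under GSK126 followed that under DMSO with a Pearson r of 0.953 and a slope of 0.915. The 2 differences share no array, although genes within an array are not independent. The calls are less separate, since both rest on 1 spread per gene, estimated over all 8 arrays.

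**Figure D1:**
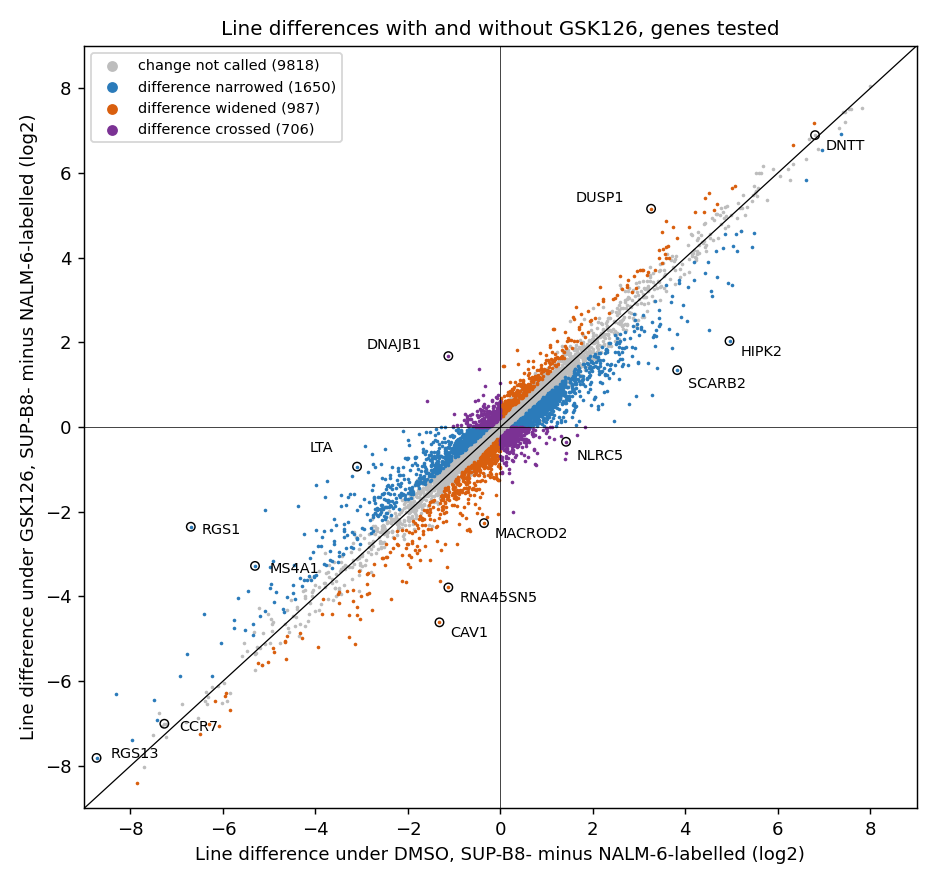
Line difference of each of 13161 tested genes under DMSO (x axis) and under GSK126 (y axis), arrays labelled SUP-B8 minus arrays labelled NALM-6, in log2 units. Points are genes, coloured by whether the difference changed with GSK126 (adjusted p under 0.05, limma); most lie near the line of equality, RGS1 and HIPK2 lie closer to 0 under GSK126, and CAV1 and DUSP1 lie farther from it.

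Large differences held most often. Of the 251 genes whose difference under DMSO was 4 log2 units or more, all were called in the same direction under GSK126, and of the 728 genes between 2 and 4 units 99.6% were. The share was 97.9% between 1 and 2 units, 93.3% between 0.5 and 1, and 40.9% below 0.5. These classes hold all tested genes, whether or not their DMSO difference was called. The 7860 genes below 0.5 thus include many with no called difference to hold. A larger difference can also lose more of its size and still be called, so the shares partly follow size itself. The size held less completely than the direction: the median gene kept 87.0% of its DMSO difference in the class from 1 to 2 units and 97.7% in the class of 4 or more. In that last class 28 genes were above background on both lines under both treatments, and their median was 91.5%.

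**Figure D2:**
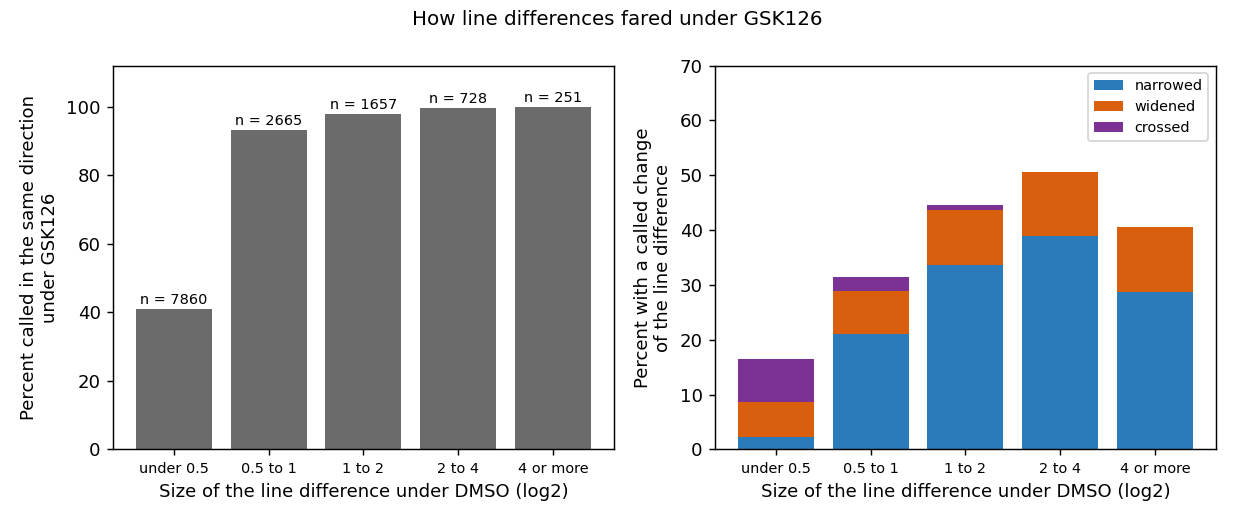
All tested genes, called under DMSO or not, grouped by the size of their line difference under DMSO (x axis, log2 units, number of genes above each bar). The left panel gives the percent called in the same direction under GSK126, rising from 40.9% to 100%, and the right panel the percent whose difference narrowed, widened or crossed 0 under GSK126.

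The change of the line difference, the difference under GSK126 minus that under DMSO, was tested in the same fit. It was called for 3343 genes (25.4%), 1440 of them upward and 1903 downward. When each array was first centred on its own median the split turned to 1562 upward and 1379 downward, so the balance of directions depends on the scaling. The difference narrowed at 1650 genes (12.5%), widened at 987 (7.5%) and changed sign at 706 of the 13161 tested. The sign is that of the fitted difference. Of these 706, 475 were called under GSK126, and 620 had a DMSO difference below 0.5 log2 units. Among the narrowed genes the response to GSK126 was called on the arrays labelled NALM-6 for 1527 and on those labelled SUP-B8 for 108. The responses themselves were called for 5178 genes (39.3%) in the arrays labelled NALM-6 and 296 (2.25%) in those labelled SUP-B8.

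Early B-cell genes were mostly higher on the arrays labelled SUP-B8 under both treatments. Of 29 tested genes of early B-cell development, 21 were higher and 7 lower there under GSK126, against 22 and 6 under DMSO, and 27 of the 28 DMSO calls held. The difference narrowed at 5, or at 3 without replicate 2 of the GSK126 arrays labelled SUP-B8, widened at 6 and crossed 0 at 1. Over all tested genes 12.5% narrowed, 7.5% widened and 706 of 13161 crossed 0. DNTT, which adds bases at immunoglobulin gene joints, read 13.58 and 13.50 on the arrays labelled SUP-B8 under GSK126 and 6.73 and 6.57 on those labelled NALM-6. The latter were below the array medians, so DNTT was higher by at least 6.31 log2 units, against at least 6.47 under DMSO (adjusted p of the change 0.621, limma). The groups were far apart for it under both treatments.

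Other precursor genes were also higher there. The surrogate light chain genes VPREB1 and IGLL1 were higher by at least 6.12 and at least 6.14 log2 units, the surface glycoprotein CD24 by at least 6.61, and IL7R, the receptor of the cytokine that sustains B-cell precursors, by at least 5.27. The recombinase gene RAG1 was higher by at least 3.10. EBF1, a transcription factor that commits cells to the B lineage, differed by less: it read 13.33 and 13.28 against 11.73 and 11.71 under GSK126, a difference of 1.59 ± 0.05 (SE, n = 2 arrays a group) that was 1.12 under DMSO (adjusted p of the change 0.00185, limma).

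Mature B-cell genes were mostly higher on the arrays labelled NALM-6, and several came closer under the drug. Under GSK126 the count was 25 lower on the arrays labelled SUP-B8 and 2 higher, out of 28 tested, the median difference being -2.57 against -3.23 under DMSO, and 10 of the 28 narrowed. Without replicate 2 of the GSK126 arrays labelled SUP-B8, 6 narrowed. With all 8 arrays 12.5% of all tested genes narrowed. CCR7, the chemokine receptor that guides lymphocytes to lymph nodes, read 5.50 and 5.70 against 12.57 and 12.64, a difference of at least 5.42 log2 units. MS4A1, which encodes CD20, read 9.13 and 9.08 on the arrays labelled SUP-B8 and 12.37 and 12.40 on those labelled NALM-6 under GSK126, where the DMSO values had been 8.10 and 7.96 against 13.34 and 13.34. Its difference narrowed from -5.31 to -3.28 ± 0.06 (SE; adjusted p of the change 8.73e-06, limma). The lines moved in opposite ways, up by 1.07 in the arrays labelled SUP-B8 and down by 0.95 in those labelled NALM-6, and their arrays remained apart. MS4A1, RAG1 and EBF1 are named outside the rule for named genes and were chosen after their values were seen.

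B-cell receptor and antigen presentation genes lay mostly on the same side. Of 25 receptor kinases and adaptors 21 were lower on the arrays labelled SUP-B8, and so were 14 of 16 MHC class II genes and 16 of 26 B-lineage transcription factors. HLA-DQA1, a class II chain, was lower by at least 4.47 log2 units and RASGRP3, an activator of Ras in B cells, by at least 4.59. The phosphatase gene PTPRC, which encodes CD45, was lower by at least 5.43. IRF8, a transcription factor of B cells and myeloid cells, read 8.29 and 8.16 against 12.52 and 12.51, a difference of -4.29 ± 0.06 (SE) that was -4.71 under DMSO. None of 16 class II genes crossed 0.

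**Figure D3:**
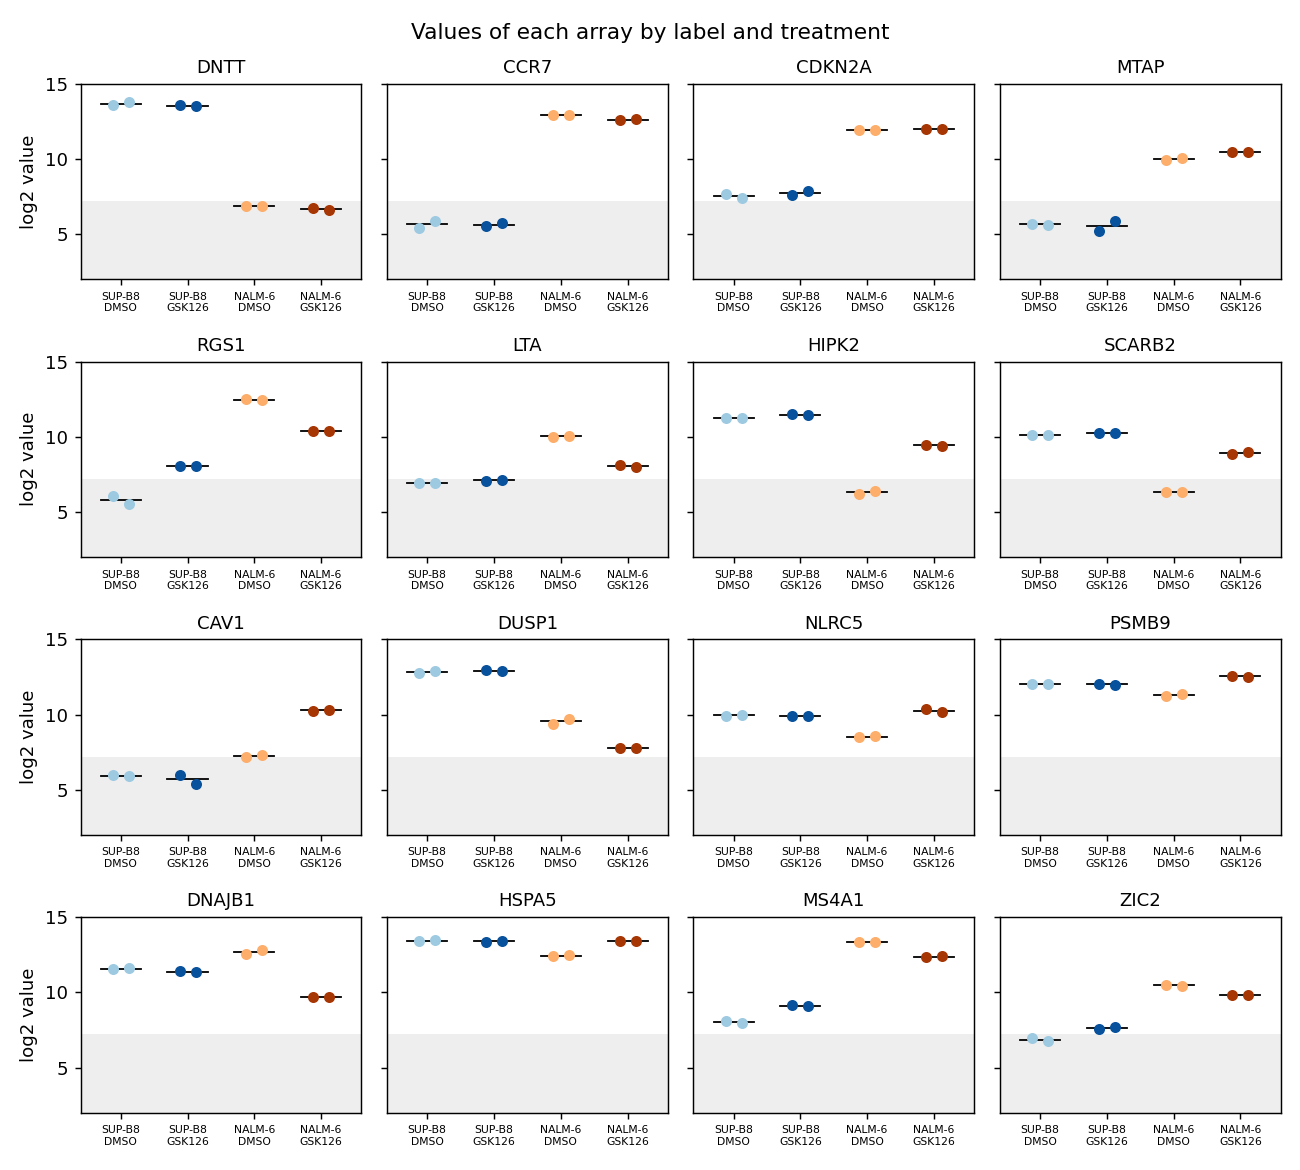
Deposited log2 value of 16 genes on each array (points), with the group mean (line), by label and treatment. The grey band lies below the mean of the array medians. DNTT, CCR7, CDKN2A and MTAP keep their line difference under GSK126, while RGS1, LTA, HIPK2 and SCARB2 narrow and CAV1 and DUSP1 widen.

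Among genes with neither group wholly below the array medians, PXDN, a matrix peroxidase, was among the highest on the arrays labelled SUP-B8, with 12.47 and 12.42 there against 7.38 and 7.18, a difference of 5.17 ± 0.09 (SE), with 5.22 under DMSO. AEBP1, which encodes a protein of the extracellular matrix and the nucleus, differed by 4.99. The ubiquitin ligase gene RNF130 differed by 5.07 on its brightest probe set, by -0.01 to 2.05 on its 6 others and by 1.27 when all were averaged. The kinase gene SGK1 was among the lowest, with 7.13 ± 0.18 (SD, n = 2) against 12.50 ± 0.14, a difference of -5.37 ± 0.09 (SE). Also low were FCMR, the receptor of the Fc part of immunoglobulin M, at -5.20, and P2RX5, an ATP-gated channel, at -5.05. ICAM3, an adhesion molecule of leukocytes, was at -4.92. For PXDN, SGK1 and FCMR 1 of the 2 dim arrays under GSK126 was below its array median, so these sizes lie near the background limit. SGK1 was below on both DMSO arrays labelled SUP-B8, where its difference was at least 4.89 log2 units. The adjusted p was 8.07e-09 or less for all genes named in this paragraph (limma). A call and arrays that did not overlap were conditions of their choice, so neither is a finding about them. Over all tested genes the arrays of the groups did not overlap for 84.7% under GSK126.

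CDKN2A, which encodes 2 tumour suppressors and is often deleted in this leukaemia, and MTAP, a neighbour of it that salvages methionine, were lower in the arrays labelled SUP-B8 under both treatments. CDKN2A read 7.61 and 7.83 against 11.97 and 11.99, a difference of -4.26 ± 0.09 (SE). MTAP read 5.20 and 5.83, below the array medians, against 10.45 and 10.47, a difference of at least 3.27 log2 units. The changes with the drug had an adjusted p of 0.462 and 0.112 (limma).

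The TNF receptor superfamily and NF-kB genes were mostly lower on the arrays labelled SUP-B8, and 14 of 25 of them narrowed. NF-kB is a family of transcription factors that carries signals from receptors such as CD40 and the lymphotoxin receptor into gene expression, and many of its inhibitors and ligands are also its targets. Of 25 tested genes 21 were lower on the arrays labelled SUP-B8 under GSK126 and 22 under DMSO, and the median difference was -1.34 against -2.49. A further 3 widened. Of all genes tested 12.5% narrowed and 7.5% widened. The median change of the list was 0.48 against -0.035 over all genes. On the arrays labelled NALM-6 the response to GSK126 was called downward for 19 of the 25 and upward for 3. Over all tested genes it was called there for 39.3%, both directions together.

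Among the ligands, the lymphotoxin gene LTA read 7.06 and 7.15 against 8.08 and 7.99 under GSK126, and 6.95 and 6.93 against 10.01 and 10.07 under DMSO. Since the arrays labelled SUP-B8 were below the medians, its difference was at least 0.84 log2 units under GSK126 and at least 2.84 under DMSO (adjusted p of the change 5.13e-06, limma). LTB, its partner chain, went from -3.81 to -2.46, and TNF was below the medians on all 4 GSK126 arrays, at 6.96 to 7.18, so its difference has no size there.

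Of the other members, the inhibitor NFKBIE read 8.56 and 8.57 against 10.19 and 10.26 under GSK126. The difference was -1.66 ± 0.05 (SE) there and -3.79 under DMSO. The subunit REL went from -2.24 to -1.25. The subunit RELB differed by -3.41, with an adjusted p of 0.0625 for the change, and the ligand CD70 by -3.99 with 0.633. CFLAR, which restrains caspase-8, widened from -3.48 to -3.90, as did TNFRSF10B and EBI3 by their own tests. LTB, TNF, NFKBIE, REL, RELB and TNFRSF10B were chosen after their values were seen.

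**Figure D4:**
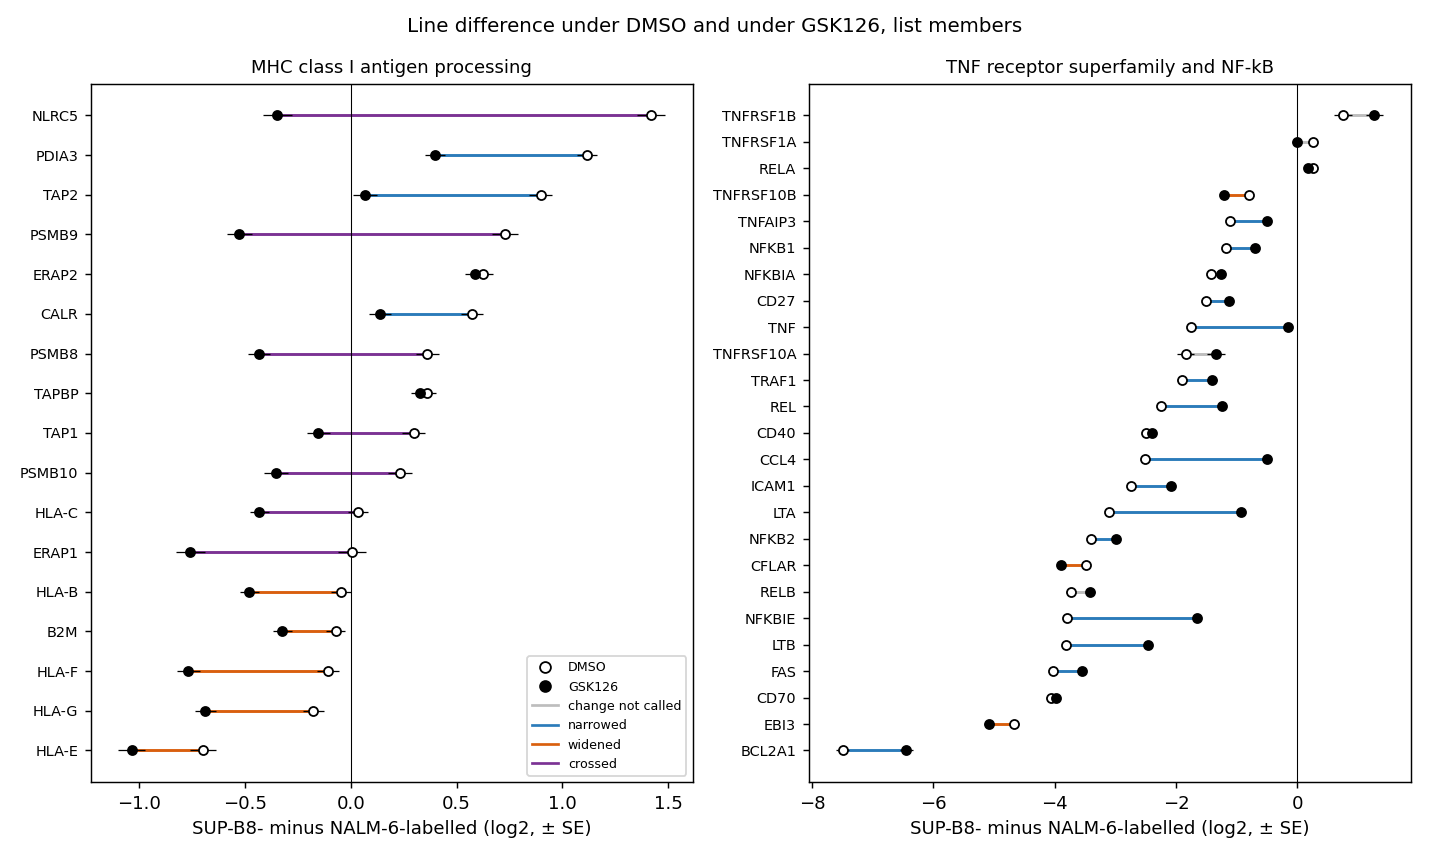
Line difference (x axis, log2 units, arrays labelled SUP-B8 minus arrays labelled NALM-6, bars are SE) of 17 MHC class I antigen-processing genes and 25 TNF receptor superfamily and NF-kB genes under DMSO (open) and GSK126 (filled). Lines are coloured by the called change: 14 members of the second list narrowed, and 7 members of the first crossed 0.

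The MHC class I antigen-processing genes reversed their balance. These genes supply peptides to class I molecules: immunoproteasome subunits cut proteins, the TAP transporter carries the peptides and chaperones load them, under the control of the transactivator NLRC5. Under DMSO 10 of 17 were higher and 2 lower on the arrays labelled SUP-B8. Under GSK126 4 were higher and 12 lower. The median difference went from 0.30 to -0.35, and the change was called at 15 of 17, each time downward. Over all tested genes the change was called at 25.4%, both directions together. The response was called upward at 15 of 17 on the arrays labelled NALM-6 and, in limma, at none of 17 on those labelled SUP-B8, where 2 had an unadjusted p under 0.05. The shares over all tested genes, both directions together, were 39.3% and 2.25%.

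For NLRC5 the arrays labelled SUP-B8 read 9.91 and 9.89 and those labelled NALM-6 10.34 and 10.15 under GSK126, where DMSO had given 9.93 and 9.98 against 8.53 and 8.55. Its difference went from 1.42 to -0.35 ± 0.07 (SE; adjusted p of the change 2.40e-05, limma). PSMB9, an immunoproteasome subunit, went from 0.73 to -0.53 and PSMB8 from 0.36 to -0.43. HLA-F read 11.64 and 11.60 against 12.34 and 12.43 under GSK126, and its difference went from -0.11 to -0.77. The light chain B2M went from -0.07 to -0.32. These sizes are small beside the lineage genes, and probe sets of the HLA genes can cross-hybridise because the genes are near-identical in part. NLRC5, PSMB8, PSMB9 and B2M were chosen after their values were seen.

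The promoters of this list were set beside those of all genes, using the 250 bases before the RefSeq start (GRCh38.p14). The letters GAAA, any 2 bases and GAAA, the core of the interferon-stimulated response element, occurred on either strand in 6 of 14 windows of the list (HLA-F, B2M, TAP1, TAP2, TAPBP and PSMB10), in 2.23% of the 10569 windows of tested genes and in 3.07% of all 27305. The windows of B2M (chr15:44711267-44711516, plus strand) and HLA-F (chr6:29723184-29723433, plus strand) are shown with these letters in capitals, overlapping matches merged. A match describes the letters only.
B2M: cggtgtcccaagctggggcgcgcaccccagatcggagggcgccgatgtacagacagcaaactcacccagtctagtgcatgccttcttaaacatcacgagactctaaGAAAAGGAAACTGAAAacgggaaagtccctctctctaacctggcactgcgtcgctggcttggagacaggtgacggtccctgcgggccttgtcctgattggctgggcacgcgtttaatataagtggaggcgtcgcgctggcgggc
HLA-F: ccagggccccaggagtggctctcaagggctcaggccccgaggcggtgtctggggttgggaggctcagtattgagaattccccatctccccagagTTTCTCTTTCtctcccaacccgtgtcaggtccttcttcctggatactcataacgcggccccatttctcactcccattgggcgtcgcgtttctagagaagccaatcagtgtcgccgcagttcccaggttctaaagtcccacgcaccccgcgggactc

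Of 32 interferon response genes tested, 15 were higher and 11 lower on the arrays labelled SUP-B8 under GSK126, against 20 and 8 under DMSO. The difference narrowed at 7, widened at 7 and crossed 0 at 3. Over all tested genes it narrowed at 12.5%, widened at 7.5% and crossed 0 at 706 of 13161. OAS1, a sensor of double-stranded RNA, read 7.47 and 7.49 against 10.18 and 9.69 under GSK126, and its difference widened from -0.65 to -2.45 ± 0.15 (SE; adjusted p of the change 0.00077, limma). The chemokine gene CXCL10 widened from at least 1.14 to at least 2.78 log2 units in favour of the arrays labelled NALM-6. IFITM1, a membrane protein that blocks virus entry, widened from -3.20 to -4.10 and the exonuclease gene ISG20 from -2.85 to -3.91, while HERC5, a ligase of ISG15, was higher on the arrays labelled SUP-B8 by at least 3.69 and had been by at least 3.47. The response was called upward for 23 of the 32 on the arrays labelled NALM-6 and downward for 1 on each label. For all tested genes the share on the arrays labelled NALM-6 was 39.3%, both directions together.

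The median difference of the immediate-early and ERK feedback genes went from -0.24 under DMSO to 0.04 under GSK126. Of 23 tested, 9 were higher and 6 lower on the arrays labelled SUP-B8 under GSK126, against 7 and 14 under DMSO. The transcription factor gene EGR1 read 7.42 and 7.55 against 8.81 and 8.72 under GSK126, and its difference narrowed from -3.75 to -1.28 ± 0.10 (SE; adjusted p of the change 3.25e-05, limma). DUSP1, a phosphatase of MAP kinases, read 12.93 and 12.89 against 7.75 and 7.76, and its difference widened from 3.26 to 5.16 ± 0.10 (SE; adjusted p of the change 0.000102, limma). Averaged over its probe sets, the difference of DUSP1 under GSK126 was 2.69. The response on the arrays labelled SUP-B8 had an adjusted p of 0.224 and 0.668 for these genes (limma). SPRY2, an inhibitor of receptor tyrosine kinase signalling, was higher by at least 3.28 log2 units, with at least 3.15 under DMSO.

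Chaperone genes changed in both directions. DNAJB1, a cytosolic co-chaperone, read 11.40 and 11.36 on the arrays labelled SUP-B8 and 9.71 and 9.70 on those labelled NALM-6 under GSK126, where DMSO had given 11.54 and 11.59 against 12.55 and 12.83. Its difference went from -1.12 to 1.68 ± 0.08 (SE; adjusted p of the change 9.21e-06, limma). HSPA5, the main chaperone of the endoplasmic reticulum, read 13.37 and 13.44 against 13.40 and 13.43, and its difference went from 0.99 to -0.01. HSP90B1 of the same compartment went from 0.99 to -0.39, and MANF, a secreted stress protein, from 0.73 to -0.54. Of 18 heat-shock chaperones tested, 11 were higher and 3 lower under GSK126, 4 widened and 5 crossed 0. Over all tested genes 7.5% widened and 706 of 13161 crossed 0. HSPA5 and HSP90B1 were chosen after their values were seen.

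Of 17 chaperone windows 2, those of HSPA5 and HSP90B1, held the letters CCAAT, any 9 bases and CCACG of the endoplasmic reticulum stress element on either strand, which 0.13% of the windows of tested genes and 0.08% of all windows held. The window of MANF did not hold them. The letters GAA, any 2 bases, TTC, any 2 bases and GAA of the heat-shock element were in 2 of the 17, DNAJB6 and CHORDC1, and not in those of DNAJB1 and HSPH1, and in 0.36% of the windows of tested genes. The windows of HSPA5 (chr9:125241344-125241593, minus strand) and HSP90B1 (chr12:103930160-103930409, plus strand) are shown with these letters in capitals.
HSPA5: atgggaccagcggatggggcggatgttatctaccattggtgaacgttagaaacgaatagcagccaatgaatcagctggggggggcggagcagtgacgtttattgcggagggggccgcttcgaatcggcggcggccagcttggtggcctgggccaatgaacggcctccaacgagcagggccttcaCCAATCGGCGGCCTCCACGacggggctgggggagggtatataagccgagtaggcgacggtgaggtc
HSP90B1: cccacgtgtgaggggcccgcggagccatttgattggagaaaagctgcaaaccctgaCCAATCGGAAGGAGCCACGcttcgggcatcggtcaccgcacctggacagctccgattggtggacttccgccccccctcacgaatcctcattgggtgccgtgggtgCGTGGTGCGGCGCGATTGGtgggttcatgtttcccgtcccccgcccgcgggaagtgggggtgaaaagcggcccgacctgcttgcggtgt

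PRC2 subunits differed by at most 1.34 log2 units. EZH2 read 11.22 and 11.18 on the arrays labelled SUP-B8 and 11.24 and 11.20 on those labelled NALM-6, a difference of -0.02 ± 0.06 (SE; adjusted p 0.826, limma) whose sign turned to 0.02 when arrays were centred. Of 12 PRC2 genes, 4 were higher and 4 lower: the accessory genes EPOP at 1.34, JARID2 at 0.79, PHF19 at 0.60 and MTF2 at 0.59 were higher, and the subunits RBBP7 at -0.46, EED at -0.40, AEBP2 at -0.23 and EZH1 at -0.21 were lower. EZH1 did not pass the test without replicate 2 of the GSK126 arrays labelled NALM-6. With the settings used throughout, PHF19 alone of the 12 had a called change, from 0.14 to 0.60. This too rests on the setting. With probe sets averaged 3 of the 12 had a called change, 2 narrowed and 1 crossed, and no member widened. The stricter filter, quantile normalization and median centring each gave 2 called changes, and the trended prior 3. EZH2, SUZ12 at -0.13, RBBP4 at 0.04 and PHF1 at -0.14 did not pass the test of the line difference. The count of lower subunits rests on the setting: SUZ12 and PHF1 passed as lower with the stricter filter, quantile normalization, a trended prior, the 4 GSK126 arrays alone or probe sets averaged, which gave 4 higher and 6 lower. With probe sets averaged RBBP4 also passed as lower, at -0.10, and EZH1 did not.

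Of 17 PRC1 genes 9 were higher and 7 lower, led by the chromodomain genes CBX6 at 2.01 and CBX7 at -1.54, the latter widened from -0.83. With probe sets averaged the balance turned to 5 higher and 9 lower, and the median from 0.17 to -0.14. Of 46 developmental transcription factor genes on the array only 21 were tested, and of these 4 were higher and 3 lower. GATA3, a factor of T cells and early progenitors, read 11.02 and 11.01 against 7.44 and 7.26, a difference of 3.66. MEIS2 and PITX1, homeodomain factors, were lower by at least 3.07 and at least 2.26 log2 units. ZIC2, a zinc finger factor chosen after its values were seen, narrowed from at least 3.26 under DMSO to -2.17 ± 0.08 (SE) under GSK126, the arrays labelled SUP-B8 rising from 6.96 and 6.77 to 7.58 and 7.73. Of 7 HOX genes tested, HOXC4 at -0.80 and HOXB4 at -0.20 were lower, and HOXB4 lost its call without replicate 2 of the GSK126 arrays labelled NALM-6 (-0.17) or replicate 1 of those labelled SUP-B8 (-0.12), and when arrays were centred (-0.16).

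**Figure D5:**
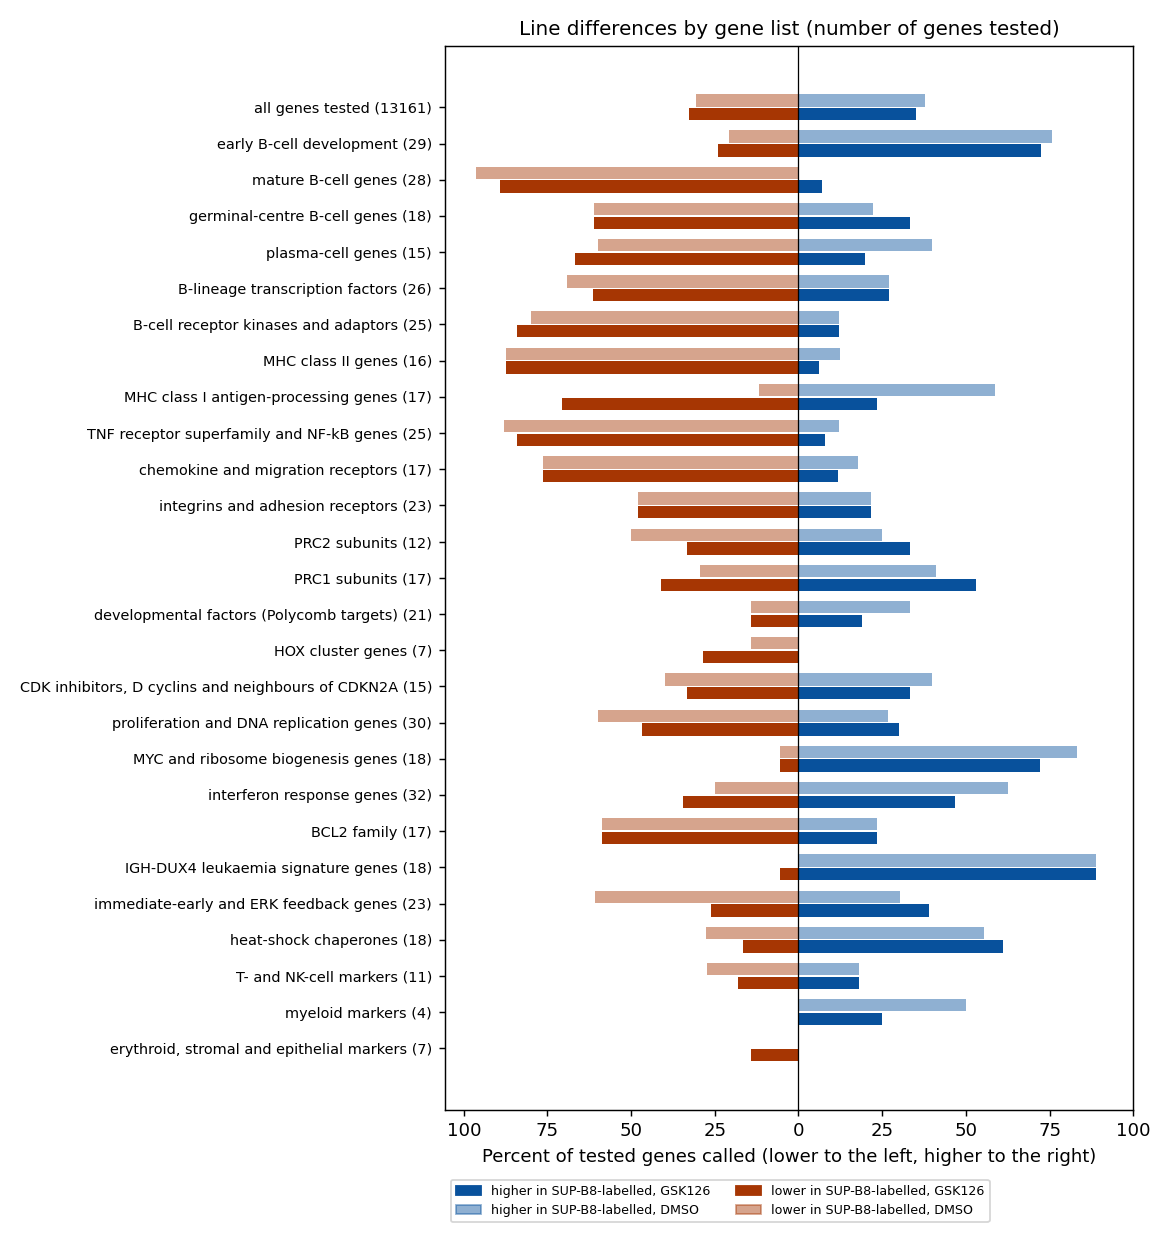
Percent of tested genes called higher (right) and lower (left) on the arrays labelled SUP-B8 under DMSO (pale) and GSK126 (dark), by gene list, with the number of genes tested in brackets and all genes at the top. Most lists keep their side, and the MHC class I genes turn from 10 higher and 2 lower of 17 to 4 higher and 12 lower.

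The 12 genes named for narrowing were ranked by the fitted change, and in 11 of them 1 line was below background under DMSO, so the fitted change is not a measured size. For IGHV1-69 the difference went from at least 0.63 to 0.54, and for ARHGAP18 from at least 1.43 to 0.76. The response was called on the arrays labelled NALM-6 for all 12 and on those labelled SUP-B8 for RGS1 and PSD3. RGS1, a brake on G-protein signalling, read 8.03 and 8.04 against 10.40 and 10.38 under GSK126, and 6.03 and 5.51 against 12.48 and 12.45 under DMSO. Its difference was -2.35 ± 0.14 (SE) under GSK126 and at least 5.26 log2 units under DMSO (adjusted p of the change 1.10e-05, limma). HIPK2, a nuclear kinase, read 11.48 and 11.41 against 9.43 and 9.40 under GSK126, where the DMSO arrays labelled NALM-6 had been below the medians at 6.20 and 6.41. Its difference narrowed from at least 4.06 to 2.03, but 9 other probe sets differed by -0.08 to 1.22 under GSK126 and the average over all was 0.70. SCARB2, a lysosomal membrane protein, narrowed from at least 2.93 to 1.34, and GIMAP2, a lymphocyte GTPase, from at least 3.51 to 2.28.

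Of the 12 single genes that widened most, 11 rose on the arrays labelled NALM-6. CAV1, the coat protein of caveolae, read 5.95 and 5.41 against 10.25 and 10.33 under GSK126 and 5.94 and 5.92 against 7.19 and 7.31 under DMSO, so its difference grew from at least 0.04 to at least 3.10 log2 units (adjusted p of the change 4.21e-05, limma). The ribosomal precursor RNA45SN5, whose gene is repeated in the genome, went from -1.12 to -3.79, and MACROD2, which removes ADP-ribose, from -0.35 to -2.27, or -0.90 under GSK126 with probe sets averaged. Under DMSO 1 line was below background in 8 of the 12. In the same group TRIM55, TEX19, CSTA, THEMIS2, LMO3 and PKIA also grew in favour of the arrays labelled NALM-6, and DUSP1 was the exception of the 12, widening through a fall there.

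Of the 10 genes named as called in opposite directions under the 2 treatments, 7 went from higher to lower on the arrays labelled SUP-B8. ETV6, a repressor of the ETS family often altered in this leukaemia, read 9.77 and 9.78 against 10.63 and 10.72 under GSK126, and its difference went from 0.76 to -0.90 ± 0.06 (SE; adjusted p of the change 2.31e-05, limma). BHLHE40, a clock-linked repressor, went the other way, from -1.60 to 0.61, and ZEB2, a zinc finger repressor, from -0.55 to 0.62. The arrays of the groups did not overlap for these genes under either treatment.

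Of 18 MYC and ribosome biogenesis genes 13 were higher on the arrays labelled SUP-B8, and MYC, named after its values were seen, narrowed from 1.26 to 0.62. Of 30 proliferation genes 9 were higher and 14 lower, with 6 narrowed and 6 crossed. Leaving out 1 array, whichever it was, gave 2 to 4 of each. The response on the arrays labelled NALM-6 was called downward for 14 of the 30 and upward for 2. Among all tested genes 39.3% were called there, both directions together. How growth moved with the other differences was not tested. Of 15 plasma-cell genes 10 were lower and 3 higher, of 18 germinal-centre genes 11 and 6, of 17 chemokine and migration receptors 13 and 2, and of 23 adhesion receptors 11 and 5. The counts were 10 lower and 4 higher of 17 BCL2 family genes and, of 15 CDK inhibitor and cyclin genes, 5 and 5. Of 5 mismatch repair genes 4 were lower, among them MSH6 at -1.25.

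Of 24848 probe sets tested, 17124 (68.9%) were called, 8861 higher and 8263 lower. Of 6495 genes with more than 1 tested probe set, 618 had probe sets called in opposite directions. Averaging the probe sets of a gene moved several differences under GSK126 by over 1.5 times. It gave -1.48 for RGS1, -1.50 for LTB, -2.24 for CFLAR, -0.51 for B2M and -0.67 for MSH6. It gave 0.20 for PHF19, 0.50 for JARID2, -0.69 for AEBP2 and 0.34 for BHLHE40. For MTAP and PTPRC, given above as bounds, the averages were -2.82 and -4.17, and the other probe set of RASGRP3 differed by -1.12. HSPA5 went to 0.19, which then passed the test (adjusted p 0.0129, limma). Among promoters, an observed over expected CpG ratio of 0.6 or more was held by 75.8% of the windows of tested genes. The share was 83.5% of all genes called higher on the arrays labelled SUP-B8 under GSK126, 76.8% of all called lower and 65.8% of those not called. It was 75.8% of genes higher by 2 log2 units or more there, and 55.3% of genes lower by as much.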

How the data were processed

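Total RNA of 8 samples was hybridised to 1-colour arrays. The authors' deposited values are log2 expression per probe set, and MAS5 and RMA are named in the submitters' processing notes. No source used here says which of them made the values or with what settings. No further normalization was applied. Probe sets with 1 gene symbol in the platform annotation were kept, 1 per gene (highest mean over 8 arrays), and tested where at least 2 arrays exceeded their median. limma 3.58.1 in R 4.3.3 fitted 1 mean per group over all 8 arrays, with 4 residual degrees of freedom, and p-values were Benjamini-Hochberg adjusted over all genes. A group with both arrays below their medians counts as not above background, and a difference from it is given as a bound: the other group's mean minus the mean of the dim group's array medians. A difference was narrowed, widened or crossed where its change had an adjusted p under 0.05. Crossed means that the fitted differences under DMSO and GSK126 had opposite signs, whether or not each was called.

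The number of arrays, 2 a group, limits precision. An exact two-sided permutation test of 2 arrays against 2 cannot go below 0.333, so single genes rest on limma's shared spread. On simulated data with 13161 genes the fit recovered 81% of line differences of 0.5 log2 units and 98% of those of 1 unit, and 51% and 93% of changes, with 5.79% and 7.1% of calls false. The simulation shifted a small share of genes in 1 group and held no other line difference. In the real data most genes differed, so these rates do not carry over to the calls given here. The members and all 27 gene lists were chosen with earlier results of these data known. Named genes were, by rule, the 12 highest and 12 lowest measured differences, the 10 largest bounds each way, the 12 most narrowed and 12 most widened, up to 10 called in opposite directions, up to 4 called members per list and all PRC2 subunits; others are marked. The highest and lowest measured differences were taken from called genes whose arrays did not overlap between the lines under GSK126. Promoter windows of 250 bases came from RefSeq (GRCh38.p14) and matched 10569 of the 13161 genes by symbol. Alternatives covered the filter, probe-set averaging, quantile normalization, median centring, a trended prior, only the 4 GSK126 arrays, a replicate block, a test against 1 log2 unit and each array left out.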

Additional observations from a re-analysis of the deposited data

Results flagged for a closer look

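The change of the line difference with GSK126 was itself tested (limma, adjusted over all genes), and it was called for 3343 genes. The named genes for which it was called are given as log2 changes, the difference under GSK126 minus that under DMSO. Where a group was below the array medians, as under DMSO in 11 of 12 narrowed and 8 of 12 widened genes, the fitted value is not a measured size. Among genes whose difference narrowed, the change was 4.34 for RGS1, 3.14 for LINC00158, 2.50 for SLAMF1, 2.47 for EGR1 and 2.17 for LTA. It was -2.92 for HIPK2, -2.53 for ARHGAP18, -2.48 for SCARB2, -2.31 for PSD3, -2.25 for IGHV1-69, -2.23 for GIMAP2 and -2.20 for ABCB4.

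Among genes whose difference widened, the change was 1.89 for DUSP1 and below 0 for the others. It was -3.29 for CAV1, -2.66 for RNA45SN5, -1.97 for TRIM55, -1.91 for MACROD2 and -1.80 for OAS1. It was -1.69 for TEX19, -1.66 for CSTA, -1.64 for THEMIS2, -1.63 for LMO3, -1.62 for CXCL10 and -1.57 for PKIA.

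Among genes called in opposite directions, the change was 2.80 for DNAJB1, 2.21 for BHLHE40 and 1.17 for ZEB2. It was -2.14 for DEPP1, -2.03 for DRAM1, -1.66 for ETV6 and -1.62 for TENT5C. It was -1.39 for BTN3A3, -1.30 for DNAJC3-DT and -1.28 for MANF. Groups of 2 arrays are too small for a test of single outlying arrays.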

How the results depend on the processing

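The counts kept their size, within 1.5 times, under each alternative run except the test against 1 log2 unit, which asks for more: it called 1796 genes under GSK126, 60 changes, 1546 held differences of 2021 and 3400 probe sets. Leaving out 1 array gave 8050 to 9033 genes, 2346 to 3026 changes, 6990 to 7377 held differences and 15380 to 17270 probe sets. The share of upward changes was 43.1%, 37.8% without replicate 2 of the DMSO arrays labelled NALM-6, and 53.1% with arrays centred on their medians. Among single genes the sign turned for EZH2 (0.019 when centred, and -0.042 to 0.007 with 1 array left out), for RBBP4 (-0.10 with probe sets averaged, -0.02 with quantile normalization), for PCGF3 (-0.18 with probe sets averaged) and for HSPA5 (0.19 with probe sets averaged); the cause was not tested. EZH1, HOXB4, EXO1 and HBB lost their call when 1 or another GSK126 array was left out. HOXB4 also lost it when arrays were centred, and EZH1 with probe sets averaged. SUZ12 gained a call under 5 alternatives, PHF1 under 7 and PSD3 under 3. With the replicate number as a block, 8790 genes, 3058 changes, 7394 held differences and 16869 probe sets were called, and no named call changed. The deviations of same-numbered arrays correlated between -0.199 and 0.13. The labels give only a replicate number, and 2 arrays a group cannot show whether same-numbered arrays were paired. The only-GSK126 fit gave no change of the difference, since it holds no DMSO arrays. Signal over background limits genes below the array medians to bounds.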
